A study of Homo sapiens with 4 samples.

Results

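NEDD8 removal was followed through 10 genes, 9 subunits of the COP9 signalosome and the protease SENP8. COPS9, a late-named signalosome subunit, is not among them and is given apart below. The 10 genes are GPS1, COPS2, COPS3, COPS4, COPS5, COPS6, COPS7A, COPS7B, COPS8 and SENP8. They were taken by their symbols from 19112 genes in a genome-wide knockout screen, in which each of them is cut by 4 sgRNAs (40 of 76441 targeting sgRNAs). The screen was done in A549, a human lung adenocarcinoma cell line, with the lentiviral Brunello library, a pool in which 1 sgRNA per cell directs Cas9 to 1 gene, so that an sgRNA gains or loses counts as the cells that carry it grow or are lost. Library-bearing cells were selected with puromycin and then kept for 3 weeks in 4 µM HQ461, a cytotoxic small molecule described by the study as a glue between the kinase CDK12 and DDB1, or in its vehicle (0.1% DMSO). Both conditions had 2 biological replicates by the labels, and the table holds 1 column for each condition, so no value below has a replicate check and no p-value is given. No column holds the pool before treatment. Values are read counts per sgRNA, 16127620 in the HQ461 column and 14428845 in the DMSO column, with a median of 110 and 152 per targeting sgRNA. sgRNAs are numbered 1 to 4 within a gene in the order of the library.

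NEDD8 is a small ubiquitin-like protein. Its attachment to a cullin switches on cullin-RING ubiquitin ligases, among them the ligase built on CUL4 and DDB1, and its removal by the COP9 signalosome switches them off and lets CAND1 exchange their substrate receptors. COPS5 is the metalloprotease of the complex and COPS6 is its inactive partner with the same MPN fold. The other subunits followed here form a scaffold through PCI domains, with COPS7A and COPS7B as alternative versions of 1 position. SENP8 is a cysteine protease that matures the NEDD8 precursor and takes NEDD8 off proteins other than cullins.

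The 2 sides of NEDD8 removal stood apart in this screen. All 9 signalosome genes had a negative log2 fold change, HQ461 over DMSO, taken as the median over the sgRNAs of a gene with 1 added to each scaled count. SENP8 had a positive one, 3.70, and was 19th from the top of 19111 measured genes. A negative sign by itself is common, since the median over all genes was -0.02. For COPS2, COPS4 and COPS5 the sign rests on few counts or changed with the processing, as given below. The signalosome medians ran from -3.10 for COPS6 through -2.60 for COPS8, -2.15 for GPS1, -1.85 for COPS7B, -1.49 for COPS2, -1.30 for COPS3, -0.91 for COPS4 and -0.77 for COPS7A to -0.63 for COPS5. In this order each gene overlapped the next in the range of its sgRNAs. A median at or below -1, a 2-fold decrease, was found for 6 of the 9, against 7.69% of all genes, and the median over the 9 was -1.49 where that over all genes was -0.02. SENP8 was past 2-fold in the other direction, as were 9.01% of all genes.

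**Figure D1:**
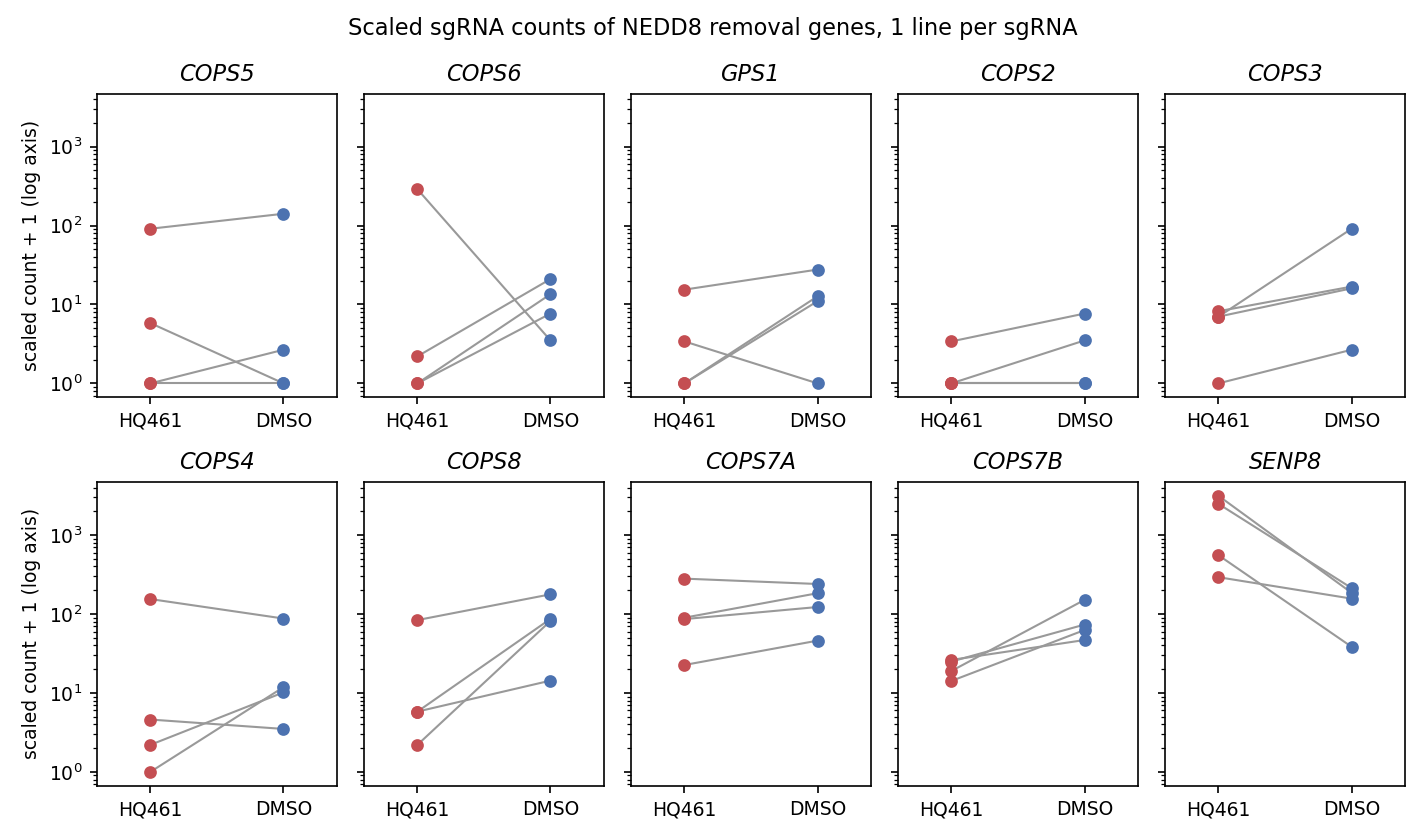
Scaled counts plus 1 on a log axis for the sgRNAs of each gene, with HQ461 on the left and DMSO on the right and 1 line per sgRNA. Lines of SENP8 run down from HQ461 to DMSO, while most lines of the COP9 signalosome run up, many of them from HQ461 values at or near a count of 0.

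Of the 36 signalosome sgRNAs, 3 had no count in either column (2 of COPS2 and 1 of COPS5) and 33 were measured. Of these, 27 had a log2 fold change under 0, against 50.3% of all targeting sgRNAs. At least a 2-fold decrease was common among them: 23 were at or below -1, against 17.9% of all targeting sgRNAs, 3 were at or above 1, against 19.5%, and 7 lay between. The non-targeting sgRNAs of the library gave another scale: 19 of the 33 lay under their 5th percentile of -1.12, where 15.4% of all targeting sgRNAs did, and 3 lay over their 95th percentile of 1.66, where 9.64% did. The controls are more abundant, with a median of 525 DMSO counts, and so have less counting error. Every sgRNA at or below -1 was found for 3 signalosome genes (COPS2, COPS3 and COPS8), against 0.549% of all genes, though COPS2 has only 2 measured sgRNAs. At least 3 sgRNAs there were found for COPS3, COPS6, COPS7B and COPS8, 4 of the 9, against 3.74%. With 5 added to each scaled count in place of 1, 14 sgRNAs were at or below -1, against 16% of all targeting sgRNAs. No signalosome gene then had all of them there, against 0.298% of all genes, and the median over the 9 genes was -0.82.

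Signalosome sgRNAs were scarce in both conditions. Their median was 4 counts with HQ461 and 17 with DMSO, 29 of 36 had under 30 counts with HQ461 and 21 with DMSO, and 11 were at 0 with HQ461 and 5 with DMSO. Among all targeting sgRNAs 15.7% had under 30 counts with HQ461 and 6.87% with DMSO. A count of 0 allows up to 3 counts, so that a 2-fold decrease can be read only where DMSO gave at least 9. That left 24 signalosome sgRNAs, of which 18 were at or below -1, against 17.8% of all targeting sgRNAs with as many DMSO counts. The DMSO count is the denominator of the fold change, and this limit takes out all 3 signalosome sgRNAs at or above 1, which had 3 DMSO counts or fewer, sgRNA 2 of COPS6 with 239 HQ461 counts among them.

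Signalosome sgRNAs were also set beside all others of like DMSO count. With 100 or more DMSO counts, 5 of 9 signalosome sgRNAs were at or below -1, against 15% of all targeting sgRNAs of that range. With 30 to 99 counts it was 4 of 6, against 23.2%, and with 10 to 29 counts it was 9 of 9, against 33.5%. Under 10 counts it was 5 of 9, against 25%, with 3 others at or above 1, and the 5 had 8 DMSO counts or fewer, too few to read a 2-fold decrease. These ranges were set after the counts had been seen, and since the DMSO count is also the denominator of the fold change, the share in all sgRNAs moves with it too.

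**Figure D2:**
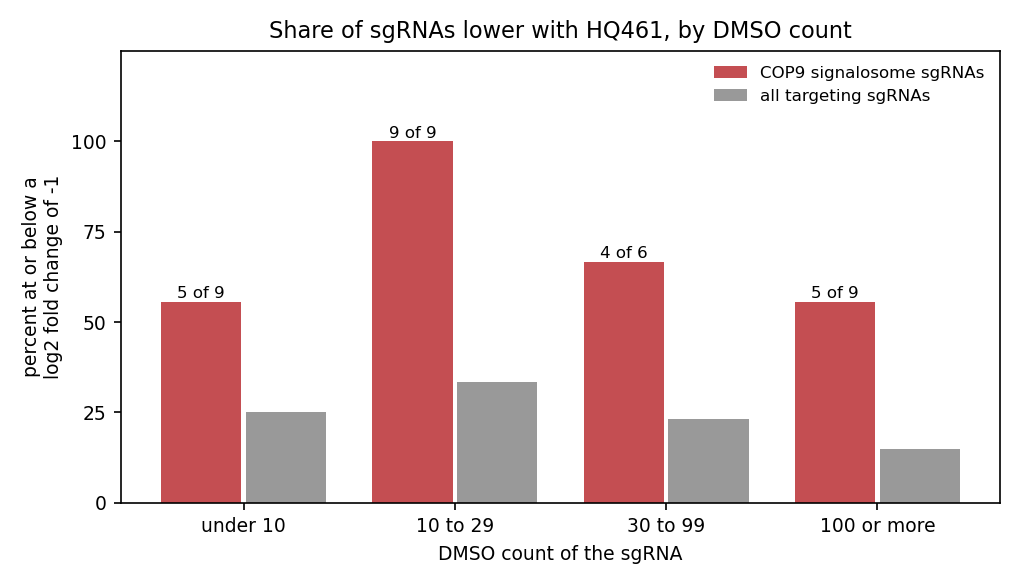
Percent of sgRNAs with a log2 fold change at or below -1 (bars start at 0), for measured COP9 signalosome sgRNAs and for all targeting sgRNAs, within 4 ranges of the DMSO count. The signalosome bars stand above the others in each range, from 9 of 9 sgRNAs at 10 to 29 counts to 5 of 9 at 100 or more, but those under 10 counts are too scarce to read a 2-fold decrease.

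COPS5 (chromosome 8, 67043079 to 67062133 on GRCh38), the catalytic subunit, could hardly be read. Its 4 sgRNAs had 4, 0, 0 and 75 counts with HQ461, against 0, 0, 2 and 168 with DMSO. Only sgRNA 4 had counts to compare, with a log2 fold change of -0.63 and a 95% interval of -1.05 to -0.24 for its count ratio. This interval, like the others here, is the exact Clopper-Pearson interval of the share of HQ461 among both counts turned into a scaled ratio; it covers counting error only, and reads from PCR without molecular identifiers are not independent molecules. The negative median of COPS5 is that sgRNA, and it became 0.79 with HQ461 counts of 0 set to 3.

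COPS6 (chromosome 7, 100088969 to 100092187), the MPN partner of COPS5, had a low median that rests on HQ461 counts of 0 and 1, and its sgRNAs were divided. They held 1, 239, 0 and 0 counts with HQ461, against 24, 3, 8 and 15 with DMSO. With HQ461 counts of 0 taken as 3, sgRNAs 3 and 4 were 1.85-fold and 3.47-fold lower after scaling. The upper ends of their log2 intervals were -0.24 and -1.32. sgRNA 1 had a ratio of 0.0600 with a log2 interval of -9.42 to -1.44. sgRNA 2 went the other way at a log2 fold change of 6.36 (interval 5.28 to 9.13), higher than 99.9% of all targeting sgRNAs. That sgRNA held nearly all HQ461 counts of the gene, so that the ratio of the summed counts, 240 against 50, was positive at 2.79, and the median was 1.55 when sgRNAs at 0 were left out. With HQ461 counts of 0 set to 3 the median was -1.14, above those of COPS8 and COPS7B, and with a pseudocount of 5 it was -1.51. Whether the cells behind sgRNA 2 carried a cut COPS6 was not tested.

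COPS8 (chromosome 2, 237085889 to 237100474), a PCI subunit, had decreases in sgRNAs with enough DMSO counts to read a 2-fold decrease. Its sgRNAs had 4, 4, 1 and 69 counts with HQ461, against 16, 103, 97 and 212 with DMSO. All 4 were lower with HQ461, and only sgRNA 4 exceeded the DMSO median of 152 counts per targeting sgRNA. The log2 fold changes were -3.90 for sgRNA 2 (interval -6.06 to -2.76), -5.22 for sgRNA 3 (-11.39 to -3.56), the lowest of all 33, and -1.08 for sgRNA 4 (-1.51 to -0.69), while sgRNA 1, at -1.30, had an interval of -3.51 to 0.16 that reaches past 0. In sum COPS8 held 78 counts with HQ461 and 428 with DMSO, 3.81-fold lower after scaling, and it ranked 53rd from the lowest median of 19111 genes.

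COPS3 (chromosome 17, 17246616 to 17281246), a scaffold subunit, had 5, 0, 5 and 6 counts with HQ461, against 18, 2, 108 and 19 with DMSO. All 4 sgRNAs were at or below -1. Only sgRNA 3, at -3.70 (interval -5.56 to -2.64), had an interval clear of 0. The sums, 16 and 147, gave a 6.38-fold decrease (log2 interval -3.52 to -1.93), the largest of the complex by this measure. Of the 147 DMSO counts sgRNA 3 gave 108, and the interval of the sums meets that of COPS7B (-2.43 to -1.66).

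GPS1 (chromosome 17, 82050932 to 82057470), the subunit also called CSN1, had 0, 0, 12 and 2 counts with HQ461, against 14, 12, 32 and 0 with DMSO. With HQ461 counts of 0 taken as 3, sgRNA 1 was 3.24-fold lower after scaling and sgRNA 2 was 2.78-fold lower. The upper ends of their log2 intervals were -1.20 and -0.95. For sgRNA 2 a change under 2-fold thus lay inside the interval. sgRNA 3, the most abundant, lay at -0.84 (interval -1.98 to 0.11). The summed counts were 14 with HQ461 and 58 with DMSO, and the interval of their log2 ratio was -2.48 to -0.66. With HQ461 counts of 0 set to 3 the median was -1.05.

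COPS4 (chromosome 4, 83035183 to 83075818) was split. Its sgRNAs had 1, 3, 0 and 128 counts with HQ461, against 11, 3, 13 and 104 with DMSO. With its HQ461 count of 0 taken as 3, sgRNA 3 was 3.01-fold lower after scaling, and its log2 interval reached up to -1.08. sgRNA 1 had a ratio of 0.131 with a log2 interval of -8.36 to -0.15. sgRNA 4, with most of the counts, was higher with HQ461 at 0.82 (interval 0.44 to 1.21), and the summed counts of 132 and 131 gave a positive log2 ratio of 0.54, against the median of -0.91.

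COPS2 (chromosome 15, 49122727 to 49155599), the subunit that grips the cullin, held 0, 2, 0 and 0 counts with HQ461, against 0, 8, 0 and 3 with DMSO. None of its sgRNAs had 9 DMSO counts, and the interval of sgRNA 2 ran from -4.75 to 0.85. The median of -1.49 therefore lies within counting error, and a change of COPS2 was not detectable at this depth.

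**Figure D3:**
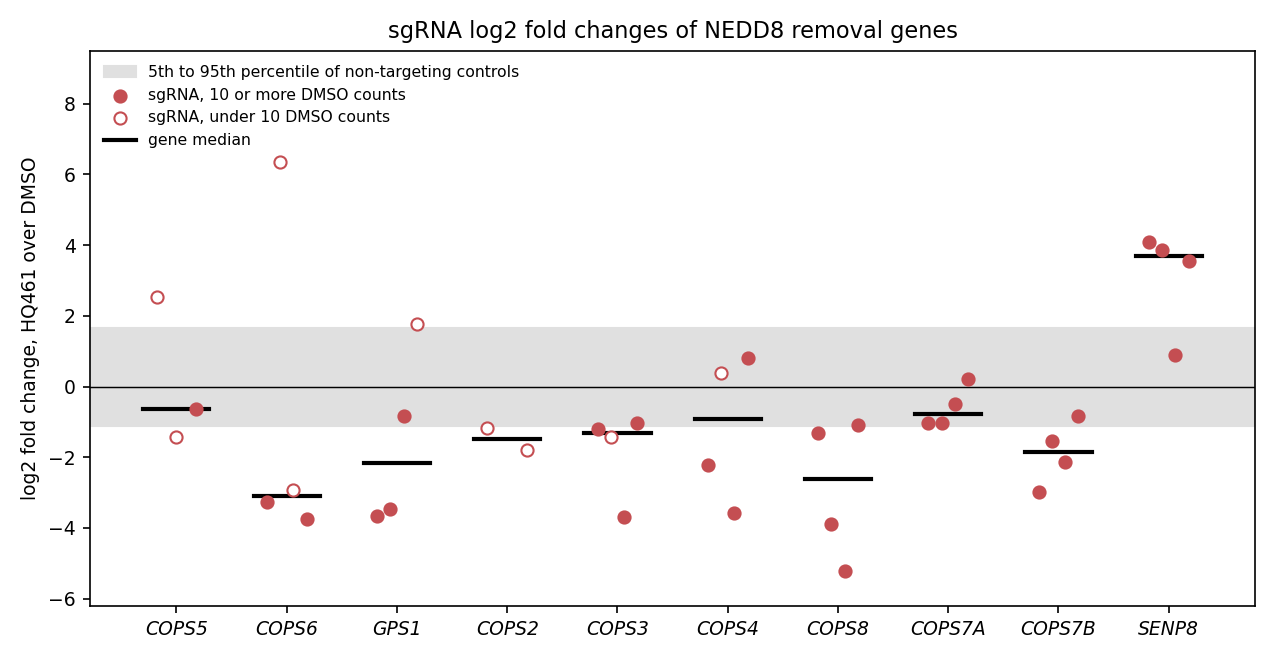
Log2 fold change, HQ461 over DMSO, of every measured sgRNA (filled with 10 or more DMSO counts, open below), with the gene median as a black line and the 5th to 95th percentile of non-targeting controls, -1.12 to 1.66, in grey. Signalosome sgRNAs above the grey band are all open, but the DMSO count is also the denominator of the fold change. Below the band both open and filled signalosome sgRNAs occur. Of the 4 SENP8 sgRNAs, 3 lie above the band.

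The paralogs COPS7A and COPS7B had enough DMSO counts in every sgRNA to read a 2-fold decrease, and they differed in size of change. COPS7B (chromosome 2, 231781671 to 231809253) had 15, 20, 11 and 21 counts with HQ461, against 180, 87, 74 and 55 with DMSO. All 4 intervals lay below 0, from -2.99 (interval -3.93 to -2.30) for sgRNA 1 to -0.84 (-1.66 to -0.11) for sgRNA 4. COPS7A (chromosome 12, 6724046 to 6731865) had 18, 74, 71 and 233 counts with HQ461, against 54, 219, 146 and 287 with DMSO. Its sgRNAs 1, 2 and 3 were lower, at -1.02, -1.03 and -0.51, and sgRNA 4 was at 0.23 with an interval of -0.03 to 0.48. All 4 sgRNAs of COPS7A lay inside the range of the controls, -1.12 to 1.66. The ratio of summed counts was 0.244 for COPS7B (log2 interval -2.43 to -1.66) and 0.808 for COPS7A (-0.49 to -0.13). These intervals do not meet, but the sgRNAs of the pair overlap, sgRNA 4 of COPS7B lying above 2 sgRNAs of COPS7A, and no test between cultures was possible.

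SENP8 (chromosome 15, 72114258 to 72143692) was higher with HQ461 in all 4 sgRNAs. They had 2620, 462, 243 and 2070 counts with HQ461, against 222, 45, 187 and 255 with DMSO. 3 of them were more than 10-fold higher, with ratios of 17, 14.8 and 11.7 for sgRNAs 1, 2 and 4, and log2 fold changes of 4.08 (interval 3.89 to 4.29), 3.85 (3.44 to 4.36) and 3.54 (3.36 to 3.74). sgRNA 3 had a ratio of 1.87 and a log2 fold change of 0.90, inside the range of the controls, so that SENP8 was not among the 1.52% of genes with every sgRNA at or above 1. With DMSO their median of 204.5 counts lay above the 152 of all targeting sgRNAs, but sgRNA 2, at 45, was at the 10.5th percentile.

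In shares of the library, SENP8 sgRNAs were 0.0335% of the HQ461 column and 0.00491% of the DMSO column, with 95% Clopper-Pearson intervals of 0.0326% to 0.0344% and of 0.00456% to 0.00529%. The 36 signalosome sgRNAs together made up 0.00635% with HQ461 (0.00597% to 0.00675%) and 0.0145% with DMSO (0.0139% to 0.0152%). With 1024 counts in sum with HQ461 and 2097 with DMSO, the scaled decrease of the complex was 1.42-fold. This is small beside the median over sgRNAs because sgRNA 2 of COPS6, sgRNA 4 of COPS4 and sgRNA 4 of COPS7A hold most of the HQ461 counts.

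Position on the chromosome was set beside each gene, because genes of chromosome 17, where GPS1 and COPS3 lie, were raised as a whole, with a median of 0.98. The other genes within 5 Mb had a median of 0.73 around GPS1 (99 genes) and 0.81 around COPS3 (86 genes), and none of them was as low as either gene. The difference from the median of these neighbours was -2.88 for GPS1 and -2.12 for COPS3 on the log2 scale. The median of neighbours was between -0.24 and 0.16 for the other 8 genes. No neighbour was lower than COPS8 (94 genes) or COPS7B (78 genes), whose windows on chromosome 2 share genes, 1 of 135 was lower than COPS6, 1 of 65 lower than COPS2, 4 of 46 lower than COPS4, 4 of 37 lower than COPS5 and 23 of 153 lower than COPS7A. SENP8 was higher than all 95 genes around it, whose median was 0.16.

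**Figure D4:**
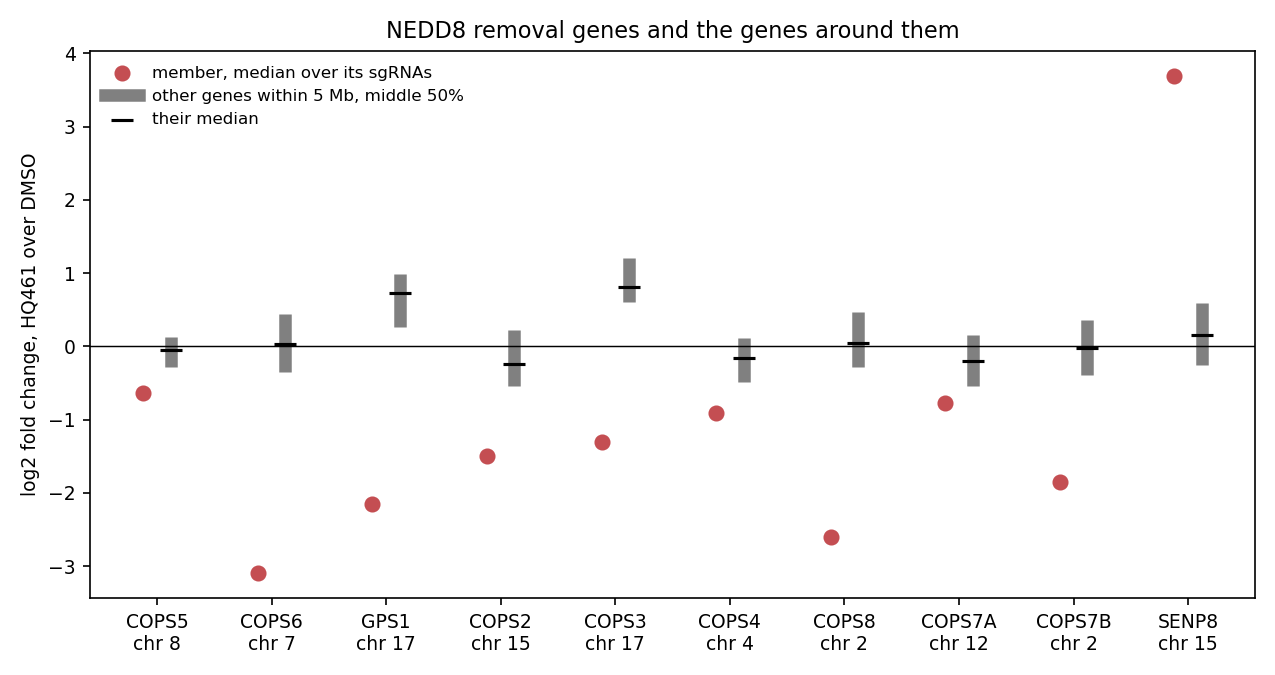
Log2 fold change of each gene (red, median over its sgRNAs) beside the other genes within 5 Mb, shown as their median (black) and middle 50% (grey). Each signalosome gene lies below the middle 50% of its neighbours, GPS1 and COPS3 on raised chromosome 17 included, and SENP8 lies above it.

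Genes that attach NEDD8 moved differently from the signalosome, while the cullins, which bear it, went both ways. The 12 attachment genes include the NEDD8 E1 and E2 enzymes, DCN-like proteins and RING subunits. Of them 6 had a median at or above 1 and 0 at or below -1, and the median over the list was 1.10. The shares among all genes were 9.01% at or above 1 and 7.69% at or below -1. RBX1, the RING subunit of most of these ligases, was at 6.45, NAE1, a subunit of the NEDD8 E1 enzyme, at 4.20 and UBE2M, an E2 enzyme, at 3.70, so that SENP8 stood at the level of UBE2M. Of 8 cullins, which carry NEDD8, 3 were at or above 1 (CUL4B at 7.51, CUL4A at 2.78 and CUL5 at 1.39) and 1 was at or below -1, CUL2 at -2.11. The other 4 were under 2-fold, and the median over the cullins was 0.26. Of the 3 genes of cullin exchange and inhibition, 2 were at or above 1, CAND1, the exchange factor, at 3.95 and GLMN, which blocks the RING subunit, at 8.43. COPS9, a small late-named subunit of the signalosome that the table lists as MYEOV2, was at 0.72 and thus not lower, with sgRNAs from -1.81 to 2.38.

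Complexes and enzymes related to the members by fold were set beside them. The lid of the 19S proteasome and the translation factor eIF3 hold subunits with the same PCI and MPN domains. Both lists also hold subunits without these domains, and the counts below are of whole lists. Of 9 lid genes, 1 was at or below -1 (SEM1, listed as SHFM1, at -1.59) and 0 at or above 1, with a median of -0.81. Of 14 eIF3 genes, 5 were at or below -1 and 3 at or above 1, with a median of -0.32 and a range from -2.29 for EIF3I to 2.39 for EIF3L. Of all genes, 7.69% were at or below -1 and 9.01% at or above 1. By sgRNA, 23 of 33 (69.7%) were at or below -1 for the signalosome, 16 of 36 (44.4%) for the lid and 20 of 53 (37.7%) for eIF3. Among all targeting sgRNAs it was 17.9%, so that the lid and eIF3 were above this share too. The median DMSO count per sgRNA was 17 for the signalosome, 42 for the lid and 38 for eIF3, and the part of this gap in the difference was not tested.

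Of 6 other proteases with a JAMM domain like that of COPS5, 0 were past 2-fold in either direction, and their median was 0.18. Here too the shares among all genes are 7.69% at or below -1 and 9.01% at or above 1. Of the 6 SENP proteases that act on SUMO, the relatives of SENP8, 2 were at or below -1 (SENP1 at -1.41 and SENP6 at -1.11) and 0 at or above 1, with a median of -0.06. SENP8 lay above all 6 of them, the highest being SENP3, on raised chromosome 17, at 0.64.

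**Figure D5:**
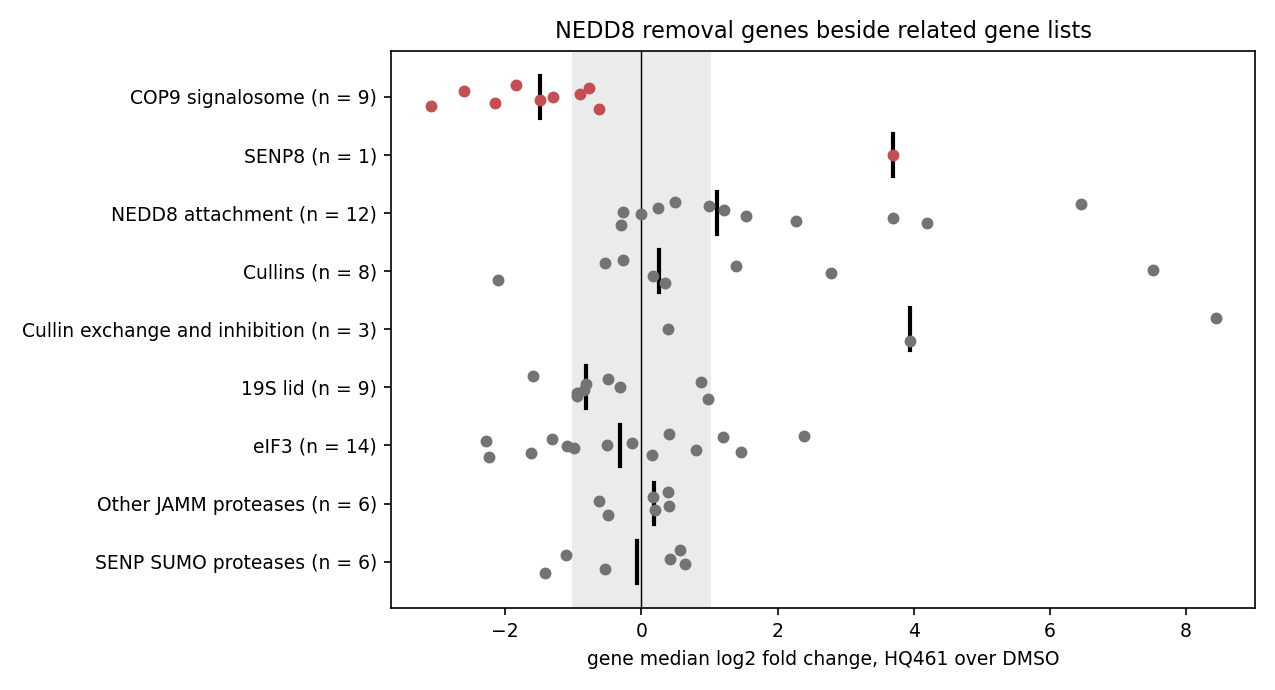
Gene medians of the log2 fold change, HQ461 over DMSO, for the COP9 signalosome and SENP8 (red) and for related lists (grey), with the median of each list as a black bar and changes under 2-fold shaded. The 9 signalosome genes drawn all lie left of 0, and SENP8 lies at 3.70 beside the higher genes of NEDD8 attachment. COPS9, at 0.72, is not drawn.

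Genes were also ordered by robust rank aggregation (RRA), a score that is small when several sgRNAs of 1 gene crowd at an end of the ranked list. For depletion COPS6 ranked 12th, COPS8 50th and GPS1 86th of 19111 genes, and for enrichment SENP8 ranked 29th. COPS6, with its divided sgRNAs, also ranked 186th for enrichment. COPS4 ranked 428th, COPS7B 488th, COPS3 765th and COPS2 2154th, whereas COPS5 at 4966th and COPS7A at 9323rd were not near the end. The rank of COPS6 rests on sgRNAs with 24 DMSO counts or fewer. That of GPS1 rests on sgRNAs 1 and 2, with 14 and 12 DMSO counts. That of COPS4 rests on sgRNAs 1 and 3, with 11 and 13.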

How the data were processed

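The authors counted reads per sgRNA with MAGeCK 0.5.9.2, and the deposited values are raw counts, 1 column per condition; how 2 replicates became 1 column is not given in these sources. edgeR, planned for 4 columns, was not used for a test. Both columns were scaled by median-ratio size factors (0.833 for HQ461 and 1.20 for DMSO) with numpy 2.4.6 and pandas 2.3.3, and intervals came from scipy 1.17.1 (all in Python 3.11.15). The 273 sgRNAs at 0 in both columns were left out. With a pseudocount of 1, log2 fold changes were taken per sgRNA and their median per gene, and counts past 2-fold are descriptions set beside all genes or sgRNAs. RRA scores used an alpha of 0.05 on sgRNAs ranked by log2 fold change, with no p. Positions are those of RefSeq on GRCh38, the build in the labels, where 17662 symbols matched, 1092 matched through a synonym and 358 did not. The steps were also run on simulated data, where the only requirement set was recovery of the ratio of the size factors. Depth was 16127620 and 14428845 counts for HQ461 and DMSO.

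All members are named, and of other lists those past 2-fold, at most the 3 furthest each way, beside COPS9 and, chosen after its value was seen, SENP3. Members and lists were chosen with earlier results of these data known. Alternatives were other scalings (TMM from edgeR 4.0.16), pseudocounts, minimum counts and summaries. Guide sequences were not used here.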

Additional observations from a re-analysis of the deposited data

How the results depend on the processing

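Of 13 alternatives, 11 were set in advance, and the minimum of 10 DMSO counts and the setting of HQ461 counts of 0 to 3 were chosen after seeing the data. SENP8 was positive under all 13, with a log2 fold change of 3.01 to 3.74: 3.01 scaled by total counts, 3.09 as a mean over sgRNAs, 3.45 as a ratio of summed counts and 3.54 without its most changed sgRNA. COPS8 and COPS7B were at or below -1 under all 13. The median over signalosome genes moved to -1.89 with total counts, which shift all sgRNAs to a median of -0.69 and put 38.3% of them at or below -1, to -1.88 with a pseudocount of 0.5 and -0.82 with 5, to -1.31 with a minimum of 30 scaled DMSO counts, -0.84 without sgRNAs at 0, -1.17 without the most changed sgRNA, -2.03 with 10 DMSO counts and -1.05 with zeros at 3. Signalosome sgRNAs at or below -1 numbered 14 with a pseudocount of 5 (16% of all targeting sgRNAs), 9 of 14 with the minimum of 30 (16.9% of all) and 15 of 23 without sgRNAs at 0 (17.3% of all). Those at or above 1 numbered 1 of 33 with a pseudocount of 5 (18.5% of all) and 1 of 23 without sgRNAs at 0 (19.4%). They numbered 0 of 14 with the minimum of 30 (18.3%) and 0 of 24 with that of 10 (18.9%). Both minimums remove them by their DMSO count. Those under the 5th percentile of the controls numbered 6 of 14 with the minimum of 30 (14.4% of all) and 11 of 23 without sgRNAs at 0 (14.7%). Signalosome genes at or below -1 numbered 3 of 6 with the minimum of 30 (8.06% of all genes). Those with every sgRNA there numbered 0 of 9 with a pseudocount of 5 (0.298% of all genes) and 1 of 9 with zeros at 3 (0.429%). COPS6 turned positive, at 1.55, without sgRNAs at 0, which leaves 2, and at 2.76 as a ratio of summed counts with 1 added, where sgRNA 2 prevails. COPS5 and COPS4, under 2-fold, also changed sign under 2 and 4 alternatives. Few DMSO counts limit what can be read for COPS2, COPS5, COPS6, GPS1 and COPS4. No paired analysis was possible because HQ461 and DMSO each fill a single column, and for this reason leaving out a replicate was not run.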
